A study of Homo sapiens with 24 samples.

Results

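The genes described here encode the subunits, activators and assembly factors of the proteasome. They were chosen by symbol: PSMA, PSMB, PSMC, PSMD, PSME, PSMF or PSMG followed by digits only, which takes in 48 of the 25168 genes in each of the study's gene tables. The members divide into 8 alpha and 7 constitutive beta subunits of the 20S core, 4 immunoproteasome or thymus beta subunits, 6 ATPases and 11 other subunits of the 19S cap, 5 activators or inhibitors and 7 assembly chaperones. RNA was sequenced from BXPC3 and PANC1, both established human pancreatic cancer cell lines, each derived from a single tumour. Cells of each line were given SR4 at 5 uM, lonidamine at 300 uM, both compounds, or vehicle, for 24 h, with 3 libraries in each of the 8 groups and 24 libraries in all. The doses within the combination are not stated apart from those of the single compounds. All cells were grown in low-glucose medium with serum, and nothing in the labels says that the libraries of a group came from separate cultures, so that the p-values reflect the spread among these libraries alone, which may be technical. SR4, a code name, is an agent known for uncoupling mitochondria. Lonidamine inhibits pyruvate uptake into mitochondria and lactate export from the cell.

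The proteasome is the protease that breaks down proteins tagged with ubiquitin. Its 20S core is a barrel of stacked alpha and beta rings, in which PSMB5, PSMB6 and PSMB7 carry the cutting sites. The 19S cap binds the ubiquitin tag, removes it, and uses a ring of ATPases to unfold the substrate and feed it into the barrel. Interferon replaces the cutting subunits with PSMB8, PSMB9 and PSMB10, which form the immunoproteasome and make peptides for display on MHC class I, and it raises the PA28 activator made of PSME1 and PSME2. When proteasome activity falls short, cells are known to raise most subunit genes together through the transcription factor NRF1, the product of NFE2L1. Cells may also raise some of them through NRF2, the product of NFE2L2.

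BXPC3 libraries held between 9142433 and 11470973 gene counts, and those of PANC1 between 8873041 and 11822495. Levels are given as CPM, counts per 1000000 counts of a library after scaling over all 24. The tumour suppressor SMAD4, whose deletion is known in BXPC3, was at 0 in every library of that line and averaged 49.8 ± 1.84 CPM in PANC1 with vehicle. For CDH1, an epithelial marker, the vehicle means were 549 ± 22.1 CPM for BXPC3 and 16.96 ± 2.53 CPM for PANC1. Immune cell markers were nearly absent apart from CD68 and were highest in treated libraries: the 12 markers together summed to between 23.4 and 42.7 CPM in BXPC3 libraries and between 119 and 216 CPM in PANC1 libraries, and at most 3 of the 12 could be tested. The 10 fibroblast markers summed to between 16.99 and 97.1 CPM over all libraries and were lower in treated PANC1 libraries than in vehicle ones. The part of these markers in the results below was not tested, and in bulk RNA fewer cells of a type and less RNA per cell cannot be told apart. A value after ± is a standard deviation (SD) for levels and a standard error (SE) for log2 changes, and n is 3 libraries per group throughout. A gene rose or fell where edgeR's quasi-likelihood test gave a Benjamini-Hochberg adjusted p under 0.05 over all genes tested.

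Most proteasome genes fell under every treatment in both lines. Both lines had 46 of the 48 members at levels that could be tested. PSMA8, the testis-specific alpha subunit, had 0 counts in all 24 libraries, and PSMB11, the thymus-specific beta subunit, had 1 count in 1 PANC1 library with SR4 and 0 in the rest. A count of 0 allows up to 0.347 CPM in the library where this limit is highest. With SR4 in BXPC3, 1 member rose and 36 fell, where 33.4% of all genes tested rose and 33.9% fell. With lonidamine in BXPC3, 2 rose and 37 fell, beside 34.8% and 32.7% of all genes. With the combination in BXPC3, 3 rose and 40 fell, beside 39.7% and 39.5% of all genes. In PANC1, SR4 raised 2 and lowered 30, beside 35% and 36.7% of all genes, and lonidamine raised 3 and lowered 34, beside 35% and 34.2%. The combination in PANC1 was less one-sided, with 11 members higher and 29 lower, beside 40.1% and 40.9% of all genes.

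The changes were modest in size. The median log2 change over the 46 members was -0.37 with SR4, -0.35 with lonidamine and -0.50 with the combination in BXPC3, and -0.29, -0.25 and -0.24 for the same treatments in PANC1, while the median over all genes tested lay within 0.026 of 0 in each comparison. The members ranged from -1.45 to 0.29 log2 with the combination in BXPC3 and from -0.95 to 0.98 log2 in PANC1. Over all 6 comparisons, 22 members fell each time and 0 rose each time, beside 12.5% and 12.3% of the 11538 genes tested in both lines, and 12 rose in at least 1, beside 68% of those genes. The comparisons of a line share their vehicle libraries. Proteasome genes together took 0.435% ± 0.00186 of all counts with the combination in BXPC3, against 0.633% ± 0.00659 with vehicle. In PANC1 they took more, 1.01% ± 0.0142 with the combination against 0.872% ± 0.00541 with vehicle (SD, n = 3 each), sums that include PSMC4, which had the highest counts there and is described further below.

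**Figure D1:**
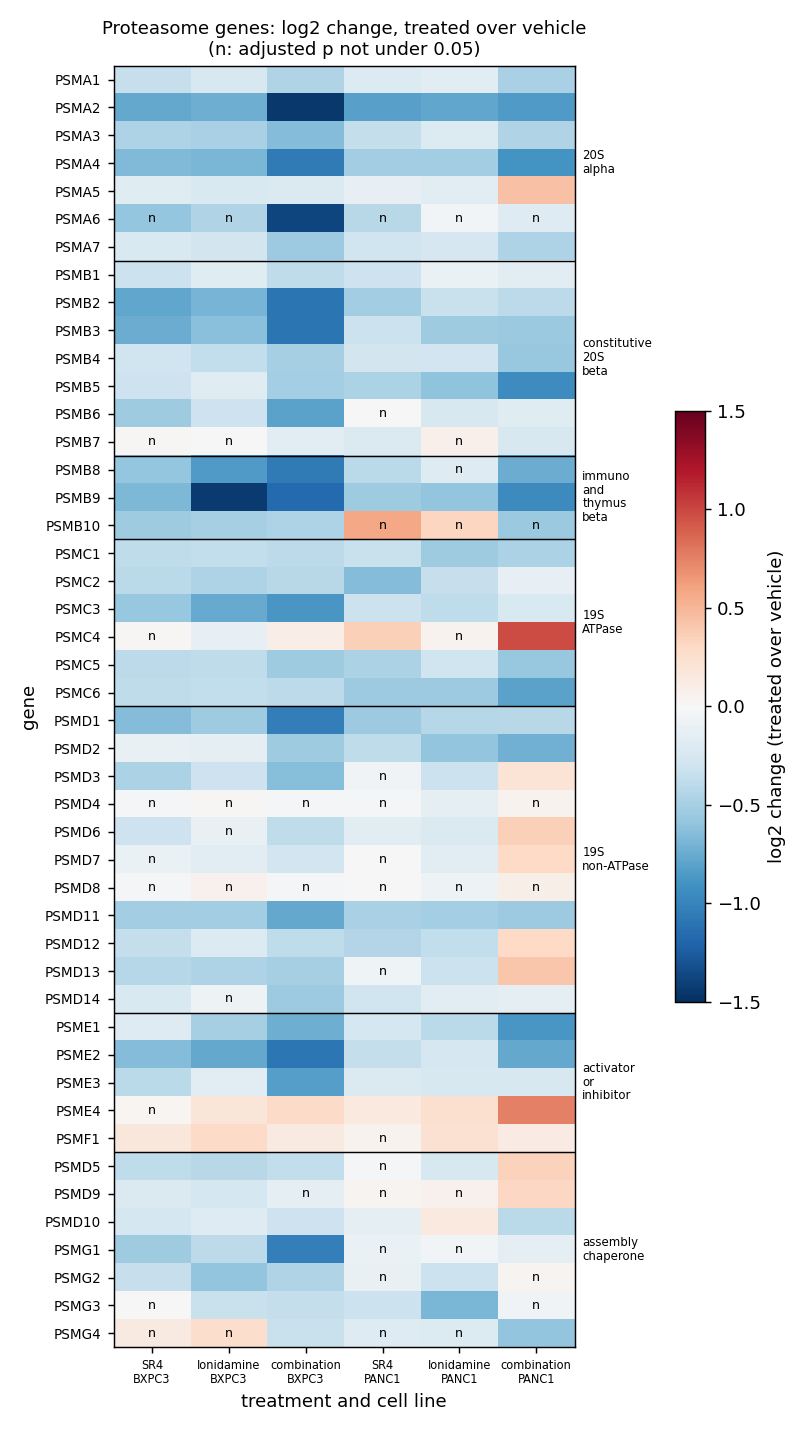
Log2 change of 46 proteasome genes (rows, grouped by role) for 3 treatments over vehicle in 2 cell lines (columns), with the colour scale in log2 units and the letter n where the adjusted p was not under 0.05. Most cells are blue (lower with treatment), and the red cells gather in the combination column of PANC1, where 11 members rose.

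The 20S core fell nearly as a whole. Of its 14 tested alpha and constitutive beta genes, 12 fell with SR4 and 12 with lonidamine in each line, and 0 rose. With the combination, 14 of 14 fell in BXPC3 and 12 of 14 in PANC1, where PSMA5 rose and PSMA6 did not pass the test. Among all genes tested, 33.9%, 32.7% and 39.5% fell in BXPC3 with SR4, lonidamine and the combination in turn. The same shares in PANC1 were 36.7%, 34.2% and 40.9%. Over these comparisons, between 33.4% and 40.1% of all genes rose. The median log2 change of the core with the combination was -0.60 in BXPC3 and -0.46 in PANC1. Summed over the core genes, the level was 1359 ± 21.6 CPM with the combination in BXPC3, against 2075 ± 73.5 CPM with vehicle. In PANC1 it was 1325 ± 14.7 CPM with the combination, against 1817 ± 2.86 CPM with vehicle. The core sum was thus lower in every combination library than in any vehicle library of the same line.

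The 3 catalytic subunits of the standard core did not move alike. PSMB5, the chymotrypsin-like subunit (chr14:23016543-23035230, GRCh38, minus strand), had 46.8, 46.5 and 43.9 CPM in the PANC1 libraries with the combination, 60.9, 58.0 and 62.7 CPM with lonidamine and 71.1, 65.0 and 60.1 CPM with SR4, against 93.1, 89.9 and 89.5 CPM with vehicle. Every treated library lay below every vehicle library, and PSMB5 fell by 0.94 ± 0.058 log2 with the combination in PANC1 (edgeR adjusted p = 1.11e-14). In BXPC3 it had 80.8, 75.5 and 78.3 CPM with the combination, against 117, 112 and 106 CPM with vehicle, a fall of 0.50 ± 0.056 log2. PSMB6, the caspase-like subunit (chr17:4796144-4798503, plus strand), had 33.3, 38.5 and 40.8 CPM with the combination in BXPC3, against 67.5, 68.5 and 61.5 CPM with vehicle, and fell by 0.80 ± 0.072 log2. In PANC1 its fall with the combination was 0.18 ± 0.063 log2, for which edgeR gave an adjusted p of 0.0523 without combination replicate 3 and 0.0730 without vehicle replicate 2. With SR4 the change of PSMB6 in PANC1 was -0.010 ± 0.063 log2, which did not pass the test. PSMB7, the trypsin-like subunit (chr9:124353466-124415444, minus strand), held closest to its vehicle level in BXPC3: it had 149.9, 153 and 151 CPM with the combination in BXPC3, against 183, 163 and 163 CPM with vehicle, and fell by 0.16 ± 0.049 log2 (edgeR adjusted p = 0.0573 without vehicle replicate 1). With SR4 and with lonidamine in BXPC3, PSMB7 changed by 0.017 ± 0.047 and 0.0097 ± 0.048 log2, neither past the test, and in PANC1 it fell by 0.24 ± 0.047 log2 with the combination.

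Among the non-catalytic beta subunits, PSMB2 and PSMB3 fell most in BXPC3. PSMB2 had 134, 131 and 129.8 CPM with the combination in BXPC3, against 299, 269.9 and 278 CPM with vehicle, a fall of 1.10 ± 0.047 log2, and PSMB3 fell by 1.09 ± 0.065 log2 in the same comparison. In PANC1 the falls of PSMB2 and PSMB3 with the combination were 0.39 ± 0.043 and 0.56 ± 0.049 log2. PSMB1 and PSMB4 fell in all 6 comparisons, by 0.10 to 0.38 log2 for PSMB1 and by 0.27 to 0.57 log2 for PSMB4.

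Alpha subunits form the outer rings of the barrel and gate its entrance. PSMA4 (chr15:78540405-78552419) fell most among the well-counted ones, by 1.06 ± 0.046 log2 with the combination in BXPC3 and by 0.90 ± 0.040 log2 in PANC1. PSMA7, the core gene with the highest level per kilobase in both lines, had 236, 225 and 226 CPM with the combination in BXPC3, against 346, 328 and 332 CPM with vehicle. In PANC1 it had 160.1, 158 and 158 CPM with the combination, against 229, 223 and 228 CPM with vehicle. The ranges did not overlap in either line, with falls of 0.54 ± 0.040 and 0.47 ± 0.042 log2. PSMA3 fell by 0.65 ± 0.059 log2 with the combination in BXPC3, and in PANC1 it had 53.8, 53.5 and 51.4 CPM with the combination, against 73.1, 74.1 and 77.6 CPM with vehicle, a fall of 0.45 ± 0.052 log2.

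PSMA5 (chr1:109399031-109426427, minus strand) was the core gene that went the other way. With the combination in PANC1 it had 129.7, 135 and 131 CPM, against 95.9, 102 and 103 CPM with vehicle, a rise of 0.44 ± 0.050 log2. With SR4 and lonidamine alone in PANC1 it fell by 0.13 ± 0.053 and 0.16 ± 0.052 log2, and in BXPC3 it fell by 0.21 ± 0.043 log2 with the combination. PSMA2 and PSMA6 were counted far less often than the other alpha genes, at 0.895 ± 0.0552 and 0.666 ± 0.0904 CPM per kilobase in BXPC3 vehicle libraries, against a median of 32.2 over the 7 tested alpha genes. The deposited range of PSMA2 meets that of C7orf25, and the range of PSMA6 meets that of KIAA0391, in both cases on the same strand. Reads shared between such genes could be assigned to either, and with the counting rule unstated in the sources used here the levels of PSMA2 and PSMA6 are uncertain. Leaving out neighbours with ranges over 1000000 bases, the ranges of 25 of the 48 members meet that of another gene, 9 of them on the same strand and 20 on the opposite strand. The fall of PSMA2 with the combination in BXPC3, 1.45 ± 0.25 log2, rests on 14 to 20 counts per library, against 56 to 61 with vehicle.

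**Figure D2:**
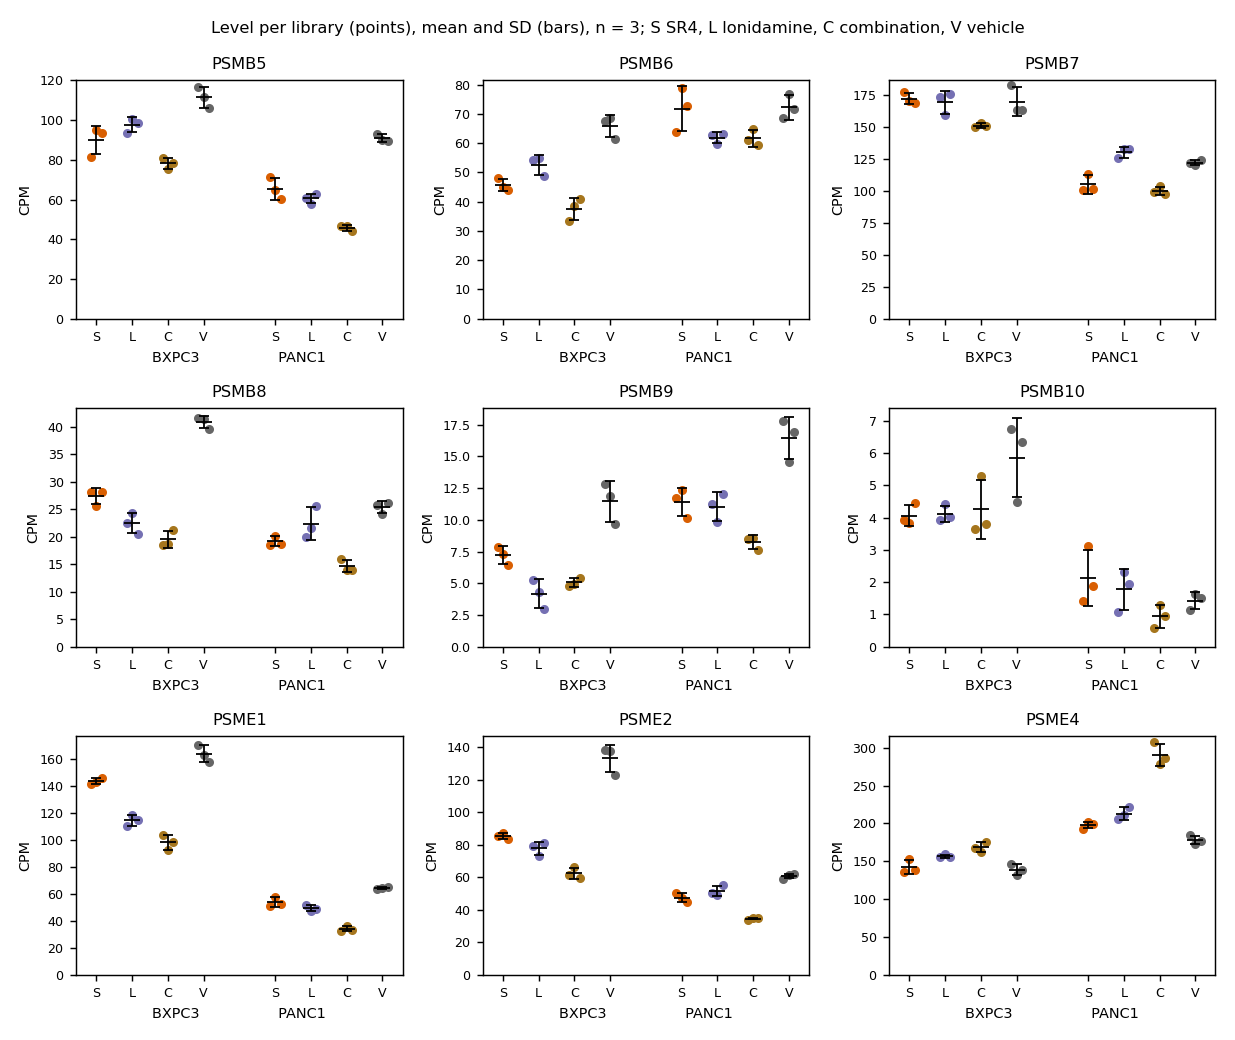
Level in CPM of 3 catalytic core genes, their 3 interferon-induced counterparts, both PA28 genes and PSME4 in each library (points), with mean and SD (bars, n = 3), for SR4, lonidamine, the combination and vehicle in BXPC3 and PANC1. PSME1 and PSME2 lie lower in every combination library than in any vehicle library, whereas PSME4 lies higher, and PSMB10 in PANC1 scatters below 3.2 CPM.

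Most immunoproteasome genes fell as well, except with lonidamine in PANC1. In BXPC3, 3 of 3 tested fell with each treatment, and in PANC1 2, 1 and 2 of 3 fell with SR4, lonidamine and the combination in turn. Among all genes tested, 33.9%, 32.7% and 39.5% fell in BXPC3 with the same treatments, and 36.7%, 34.2% and 40.9% in PANC1. The 1 of 3 with lonidamine in PANC1 was thus near the share of all genes. PSMB8 (chr6:32840717-32844703, minus strand), the counterpart of PSMB5, had 18.5, 18.8 and 21.3 CPM with the combination, 22.6, 24.3 and 20.6 CPM with lonidamine and 28.2, 25.7 and 28.2 CPM with SR4 in BXPC3, against 41.6, 41.6 and 39.6 CPM with vehicle. No treated library reached the vehicle range, and the fall with the combination was 1.06 ± 0.082 log2 (edgeR adjusted p = 4.51e-12). In PANC1, PSMB8 fell by 0.41 ± 0.095 log2 with SR4 and by 0.75 ± 0.097 log2 with the combination, while its change with lonidamine, -0.19 ± 0.090 log2, did not pass the test (edgeR adjusted p = 0.0587, and 0.00693 without lonidamine replicate 3 or 0.0443 without SR4 replicate 2). PSMB9 (chr6:32844136-32859585, plus strand), the counterpart of PSMB6, had 5.26, 4.31 and 2.96 CPM with lonidamine in BXPC3, against 12.8, 11.9 and 9.67 CPM with vehicle, a fall of 1.44 ± 0.17 log2 and the largest of any member with a single compound. Few PSMB9 counts lie behind these lonidamine levels. With the combination PSMB9 fell by 1.17 ± 0.17 log2 in BXPC3, and in PANC1 it had 8.48, 8.60 and 7.59 CPM, against 17.8, 14.6 and 16.95 CPM with vehicle, a fall of 0.95 ± 0.12 log2. PSMB8 and PSMB9 lie next to each other in the MHC region of chromosome 6, their deposited ranges meet on opposite strands, and that of PSMB9 also meets TAP1. PSMB10 (chr16:67930925-67937087, minus strand), the counterpart of PSMB7, was rare: 7 to 30 counts per library in PANC1 and 32 to 75 in BXPC3. It fell by 0.53 ± 0.19, 0.50 ± 0.19 and 0.46 ± 0.19 log2 in BXPC3 (SR4, lonidamine and combination), and did not pass the test in PANC1. DESeq2 gave PSMB10 an adjusted p of 0.0757 with the combination and 0.0547 with lonidamine in BXPC3. In edgeR these 3 falls did not pass without vehicle replicate 1 or vehicle replicate 3 (adjusted p from 0.0541 to 0.149), nor did that with the combination without its replicate 1 or 3 or that with lonidamine without its replicate 1 (0.0603 to 0.132).

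Per kilobase, the immune subunits were minor beside their constitutive partners. In BXPC3 the PSMB8 level was 0.220 ± 0.0189 of the PSMB5 level with the combination, 0.203 ± 0.0166 with lonidamine and 0.269 ± 0.0329 with SR4, against 0.323 ± 0.00784 with vehicle. In PANC1 the same ratio was 0.281 ± 0.0170 with the combination, 0.326 ± 0.0360 with lonidamine and 0.259 ± 0.0258 with SR4, against 0.246 ± 0.0108 with vehicle. In BXPC3 the libraries of each treatment thus lay below all vehicle libraries. In PANC1 the combination and lonidamine libraries lay above all vehicle libraries, and the SR4 libraries overlapped them. The PSMB9 to PSMB6 ratio was 0.0371 ± 0.00861 with lonidamine in BXPC3, against 0.0816 ± 0.00757 with vehicle, and 0.0628 ± 0.00261 with the combination in PANC1, against 0.108 ± 0.0168 with vehicle. In BXPC3 this ratio was 0.0637 ± 0.00365 with the combination and 0.0743 ± 0.00471 with SR4. In PANC1 it was 0.0838 ± 0.00637 with lonidamine and 0.0753 ± 0.0104 with SR4. With 3 libraries against 3, an exact permutation test of such a ratio cannot give a p under 0.1, so none is given.

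The PA28 activator genes, which lie close together on chromosome 14, fell in all 6 comparisons. PSME1 (chr14:24136158-24138967, plus strand) had 32.7, 36.3 and 33.5 CPM with the combination in PANC1, against 63.9, 64.4 and 65.3 CPM with vehicle, and in BXPC3 it had 104, 92.8 and 98.2 CPM with the combination, against 170.5, 163 and 158 CPM with vehicle. PSME2 (chr14:24143362-24147258, minus strand) had 61.2, 66.3 and 59.4 CPM with the combination, 78.9, 73.2 and 81.0 CPM with lonidamine and 85.3, 87.1 and 83.2 CPM with SR4 in BXPC3, against 138, 138 and 123 CPM with vehicle. With the combination, PSME1 fell by 0.73 ± 0.047 log2 in BXPC3 and 0.87 ± 0.063 log2 in PANC1, and PSME2 by 1.09 ± 0.056 and 0.77 ± 0.062 log2. Treated and vehicle libraries did not overlap for either gene. PSME3, which encodes the nuclear PA28-gamma and is not known as an interferon target, also fell in all 6: it had 138, 144 and 144 CPM with the combination in BXPC3, against 244, 261 and 255 CPM with vehicle, a fall of 0.83 ± 0.040 log2, and a smaller one of 0.24 ± 0.042 log2 in PANC1.

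A motif of interferon targets lay at the start sites of several of these genes. RefSeq windows on GRCh38.p14, from 250 bases before to 50 bases after a start site, were at hand for 42 of the 48 members. The core of the interferon-stimulated response element, GAAA and a second GAAA after 2 bases of any kind, on either strand, lay in at least 1 window of 7 of these 42 members (16.7%), against 4.38% of all 27305 genes with windows. The 7 were PSMA4, PSMB4, PSMB8, PSMB10, PSME1, PSME2 and PSMG4, and with the combination 7 of 7 fell in BXPC3 (median log2 change -0.73) and 6 of 7 in PANC1 (median -0.75). Of the 33 tested members without it, 28 fell in BXPC3 (median -0.50) and 19 fell in PANC1 (median -0.19). Of all genes tested, 39.5% fell in BXPC3 and 40.9% in PANC1. In PSMB8 and PSME1 the match reaches past the start site, and in PSMB10 and PSME2 it lies within the last 28 bases before it. The 250 bases before those 2 start sites are shown because the element sits in both at nearly the same place, with its core in capitals. These RefSeq starts differ from the deposited ones. By the deposited gene ranges, all PSME2 bases shown and most PSMB10 ones lie inside the gene. PSMB10 is read on the minus strand from chr16:67936851-67937100 and PSME2 on the minus strand from chr14:24146611-24146860, and the first capitals in PSME2 mark an antioxidant response element core.
PSMB10: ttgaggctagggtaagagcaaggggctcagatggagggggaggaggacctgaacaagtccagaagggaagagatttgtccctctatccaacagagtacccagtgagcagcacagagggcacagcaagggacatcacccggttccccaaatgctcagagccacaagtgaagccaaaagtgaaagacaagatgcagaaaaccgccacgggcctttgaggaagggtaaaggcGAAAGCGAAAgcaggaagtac
PSME2: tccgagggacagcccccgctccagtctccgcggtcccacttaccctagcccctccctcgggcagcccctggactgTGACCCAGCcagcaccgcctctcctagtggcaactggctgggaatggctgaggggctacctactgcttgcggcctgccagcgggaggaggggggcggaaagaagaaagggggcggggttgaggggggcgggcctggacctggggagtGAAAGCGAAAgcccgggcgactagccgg
Among the other genes of interferon signalling and antigen processing, more fell than rose with the combination in both lines. Of 24 such genes, 5 rose and 15 fell with the combination in BXPC3, and of 23 tested in PANC1, 4 rose and 14 fell, with median log2 changes of -0.34 and -0.63. With lonidamine 4 rose and 17 fell in BXPC3 (median -0.35), whereas 8 rose and 9 fell in PANC1 (median -0.078), and with SR4 6 rose and 14 fell in BXPC3 (median -0.22) and 7 rose and 10 fell in PANC1 (median -0.14). Of all genes, 39.7% rose and 39.5% fell with the combination in BXPC3, and 40.1% and 40.9% in PANC1. The shares with lonidamine were 34.8% and 32.7% in BXPC3 and 35% and 34.2% in PANC1. Those with SR4 were 33.4% and 33.9% in BXPC3 and 35% and 36.7% in PANC1. TAP1, the peptide transporter gene beside PSMB9, fell in all 6 comparisons, by 1.11 ± 0.072 log2 with lonidamine in BXPC3 and by 0.93 ± 0.063 log2 with the combination in PANC1. NLRC5, the activator of MHC class I genes, went apart between lines: it rose by 0.81 ± 0.11 log2 with the combination in BXPC3 and fell by 2.16 ± 0.32 log2 in PANC1. IRF1 changed by -0.091 ± 0.054 log2 with the combination in BXPC3, which did not pass the test, and fell by 0.86 ± 0.077 log2 in PANC1. TAPBP, the tapasin gene, fell by 0.91 ± 0.039 and 1.71 ± 0.046 log2 in the same comparisons, and the peptide-trimming gene ERAP2 by 1.76 ± 0.051 and 3.21 ± 0.12 log2. B2M, the MHC class I light chain, fell by 0.83 ± 0.035 log2 with the combination in PANC1. HLA-E and STAT2 went the other way: HLA-E rose by 0.86 ± 0.043 log2 with the combination in BXPC3, and STAT2 by 1.72 ± 0.074 log2 in PANC1.

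The 19S cap fell in BXPC3 and split in PANC1. Of its 17 genes, 13 fell with SR4, 13 with lonidamine and 14 with the combination in BXPC3, and PSMC4 was the 1 that rose with the combination there. In PANC1, 11 fell with SR4 and 15 with lonidamine, but with the combination 9 fell and 6 rose: PSMC4, PSMD3, PSMD6, PSMD7, PSMD12 and PSMD13. Among all genes tested, 33.9%, 32.7% and 39.5% fell in BXPC3 with SR4, lonidamine and the combination in turn. The same shares in PANC1 were 36.7%, 34.2% and 40.9%. With the combination in PANC1, 40.1% of all genes rose, so the rises among cap genes were no more frequent than that. The median log2 change of the cap with the combination was -0.42 in BXPC3 and -0.12 in PANC1. Apart from PSMC4, all the risers encode non-ATPase subunits, and PSMD3, PSMD6, PSMD7, PSMD12 and PSMD13 all belong to the lid, the part of the cap that holds the deubiquitinase PSMD14.

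PSMD12 (chr17:67337916-67366627, minus strand), a lid scaffold subunit, had 129, 122 and 125 CPM with the combination, 79.2, 82.4 and 87.2 CPM with lonidamine and 77.1, 78.3 and 77.5 CPM with SR4 in PANC1, against 107, 107 and 103 CPM with vehicle. The combination libraries lay above vehicle and both single compounds below it, a rise of 0.30 ± 0.044 log2 (edgeR adjusted p = 5.71e-07) beside falls of 0.37 ± 0.045 and 0.45 ± 0.047 log2. In BXPC3 it had 121, 121 and 118 CPM with the combination, against 161, 147 and 162 CPM with vehicle, a fall of 0.38 ± 0.049 log2. PSMD13 (chr11:236546-252984), another lid scaffold, had 332, 329 and 333 CPM with the combination in PANC1, against 264, 249.8 and 257 CPM with vehicle, and 96.2, 94.4 and 94.8 CPM with the combination in BXPC3, against 135, 138 and 134 CPM with vehicle. Its changes were a rise of 0.41 ± 0.038 log2 in PANC1 and a fall of 0.50 ± 0.043 log2 in BXPC3. PSMD6, PSMD7 and PSMD3 rose by 0.35 ± 0.056, 0.30 ± 0.048 and 0.21 ± 0.039 log2 with the combination in PANC1, and fell by 0.38 ± 0.052, 0.29 ± 0.048 and 0.64 ± 0.054 log2 in BXPC3. All 5 lid genes fell with lonidamine alone in PANC1, by 0.15 to 0.37 log2.

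Other lid and base genes fell in both lines. PSMD14, the deubiquitinase of the lid, had 74.4, 74.7 and 71.9 CPM with the combination in BXPC3, against 103, 113 and 109 CPM with vehicle, a fall of 0.55 ± 0.049 log2, and fell by 0.15 ± 0.047 log2 in PANC1. PSMD11, a lid scaffold, fell by 0.76 ± 0.046 log2 with the combination in BXPC3, and in PANC1 it had 206, 199.7 and 205 CPM with the combination, against 317, 303 and 304 CPM with vehicle, a fall of 0.55 ± 0.036 log2. PSMD1 and PSMD2 are the large scaffolds of the base to which ubiquitin receptors and shuttles bind. PSMD1 had 97.6, 102 and 96.9 CPM with the combination in BXPC3, against 205, 202 and 204 CPM with vehicle, a fall of 1.04 ± 0.043 log2, and fell by 0.42 ± 0.038 log2 in PANC1. PSMD2 had 402, 402 and 394 CPM with the combination in PANC1, against 699, 667 and 675 CPM with vehicle, a fall of 0.72 ± 0.034 log2, and fell by 0.53 ± 0.034 log2 in BXPC3. The groups did not overlap in these comparisons.

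PSMD4, a ubiquitin receptor of the cap, stayed close to its vehicle level: it had 98.0, 97.7 and 98.8 CPM with the combination in BXPC3, against 101, 101 and 97.9 CPM with vehicle, and 206, 196 and 204 CPM with the combination in PANC1, against 212, 202 and 192 CPM with vehicle. It passed the test only with lonidamine in PANC1, where it fell by 0.14 ± 0.044 log2, with an edgeR adjusted p of 0.0547 without vehicle replicate 1. PSMD8, another lid gene, passed in 0 of the 6 comparisons, with log2 changes between -0.074 and 0.091. Among the ATPases that unfold substrates, PSMC1, PSMC2, PSMC3, PSMC5 and PSMC6 fell in all 6 comparisons. PSMC6 fell most in PANC1, by 0.80 ± 0.054 log2 with the combination, and PSMC3 most in BXPC3, by 0.87 ± 0.048 log2. PSMC2 had 140.3, 139 and 139 CPM with the combination and 95.1, 105 and 100.4 CPM with SR4 in PANC1, against 162, 148 and 161 CPM with vehicle. In PANC1 its fall with SR4 was 0.65 ± 0.046 log2, and that with the combination 0.12 ± 0.044 log2, for which the edgeR adjusted p was 0.0983 with no low-count filter, 0.0706 without vehicle replicate 1 and 0.0627 without vehicle replicate 3.

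**Figure D3:**
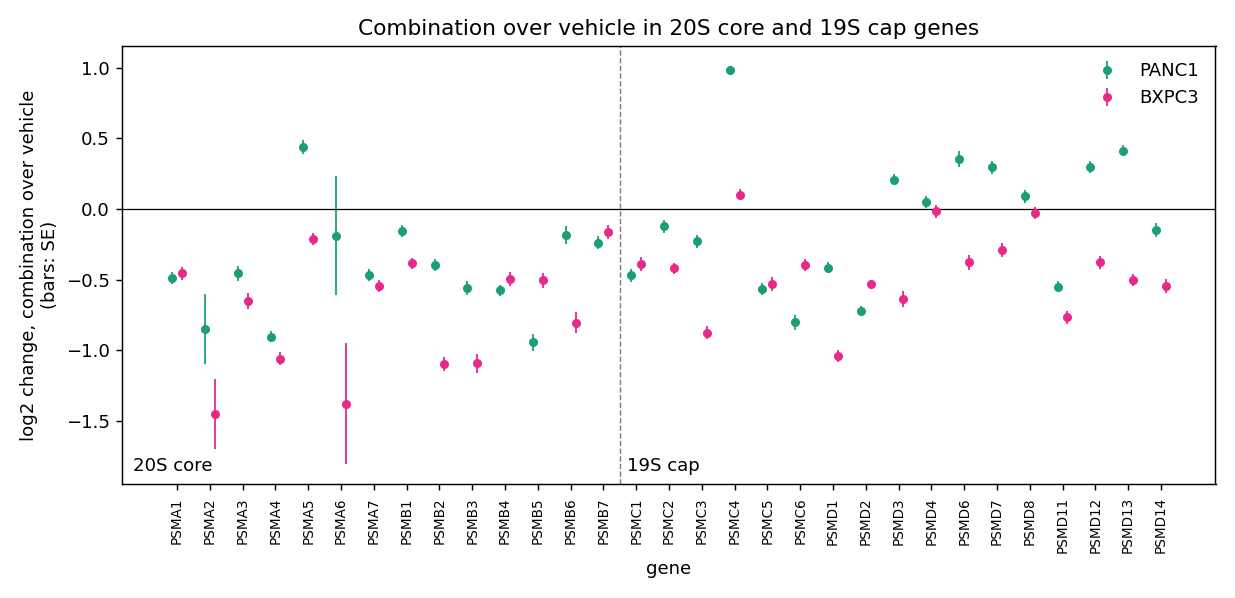
Log2 change with the combination over vehicle (vertical axis, points, with SE as bars) of 14 core and 17 cap genes in PANC1 and BXPC3. In BXPC3 nearly all points lie below 0, whereas in PANC1 PSMA5, PSMC4 (at 0.98) and 5 lid genes that rose lie above it, with PSMD4 and PSMD8, which did not pass the test, just above 0.

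The 3 promoters below are shown because their genes fell with the combination in BXPC3 and rose in PANC1 and because each holds the core of the antioxidant response element, TGACNNNGC, which NRF1 and NRF2 are known to bind. On either strand this core lay in at least 1 window of 15 of 42 members (35.7%), against 16.1% of all genes. PSMA5, PSMD6, PSMD7 and PSMD13 also fell in BXPC3 and rose in PANC1 with the combination, and are not among these 15. With the combination, 12 of the 15 fell and 2 rose in BXPC3, and 8 fell and 6 rose in PANC1. Of the 25 tested members without it, 23 fell and 1 rose in BXPC3, and 17 fell and 5 rose in PANC1. Of all genes tested, 39.5% fell and 39.7% rose in BXPC3, and 40.9% fell and 40.1% rose in PANC1. PSMD5, an assembly chaperone described further below, is shown with the lid genes PSMD3 and PSMD12. Capitals mark the core, at 37 to 29 bases before the start in PSMD3 (chr17:39980557-39980806, plus strand), 165 to 157 in PSMD12 (chr17:67366578-67366827, minus strand) and 134 to 126 in PSMD5 (chr9:120842923-120843172, minus strand).
PSMD3: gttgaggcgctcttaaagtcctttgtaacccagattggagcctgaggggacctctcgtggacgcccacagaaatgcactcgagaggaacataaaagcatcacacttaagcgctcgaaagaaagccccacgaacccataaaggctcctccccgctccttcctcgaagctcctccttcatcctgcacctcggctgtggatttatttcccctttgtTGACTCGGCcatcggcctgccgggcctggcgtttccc
PSMD12: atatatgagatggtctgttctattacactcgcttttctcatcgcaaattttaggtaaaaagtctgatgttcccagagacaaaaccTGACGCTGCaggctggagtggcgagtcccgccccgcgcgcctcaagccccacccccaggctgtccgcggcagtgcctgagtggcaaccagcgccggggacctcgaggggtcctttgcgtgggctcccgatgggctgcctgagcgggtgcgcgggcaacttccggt
PSMD5: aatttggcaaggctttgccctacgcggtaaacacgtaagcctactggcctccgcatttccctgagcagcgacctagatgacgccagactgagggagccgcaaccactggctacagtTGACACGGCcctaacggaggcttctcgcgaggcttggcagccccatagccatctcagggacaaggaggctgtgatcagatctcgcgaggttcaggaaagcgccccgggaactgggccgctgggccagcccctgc
Searched the same way, the CCAAT box lay in 20 of 42 members (47.6%), against 39.7% of all genes, and the gamma-activated sequence TTCNNNGAA in 8 (19.05%), against 9.38%. With the combination, the 19 tested members with the CCAAT box had a median log2 change of -0.64 in BXPC3 and -0.24 in PANC1, against -0.45 and -0.47 for the 21 without it. The 7 tested members with the gamma-activated sequence had medians of -0.64 in BXPC3 and -0.72 in PANC1, against -0.46 and -0.39 for the 33 without it. The C/EBP-ATF element TTGCATCA was in 0 of 42 members and in 1.08% of all genes. These motifs can overlap and share letters, and a match describes the sequence only.

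PSMC4, an ATPase of the cap (chr19:39971005-39981441, plus strand), stood apart in PANC1. It had 4386, 4472 and 4437 CPM with the combination, 2374, 2478 and 2445 CPM with lonidamine and 2932, 3118 and 2861 CPM with SR4 in PANC1, against 2326, 2302 and 2319.7 CPM with vehicle. In BXPC3 it had 172, 177 and 173 CPM with the combination, against 165, 163 and 161 CPM with vehicle. In PANC1 it rose by 0.98 ± 0.030 log2 with the combination (edgeR adjusted p = 7.95e-22) and by 0.36 ± 0.029 log2 with SR4, and the combination libraries lay far above all others. In BXPC3 its rise with the combination was 0.10 ± 0.039 log2, and DESeq2 gave it an adjusted p of 0.0630. In edgeR it did not pass without combination replicate 2, vehicle replicate 2 or vehicle replicate 3 (adjusted p from 0.0503 to 0.0699). The start levels differed more than those of any other member: PSMC4 was lower in BXPC3 vehicle libraries than in PANC1 vehicle libraries by 3.83 ± 0.034 log2, with 68.5 ± 0.782 CPM per kilobase in BXPC3 and 974 ± 5.07 in PANC1.

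The genes around PSMC4 showed the same difference between lines. Of 20 tested genes within 500 kb of it on chromosome 19, 14 were lower and 5 higher in BXPC3 vehicle libraries than in PANC1 vehicle libraries, with a median log2 difference of -3.06. FBL, a nucleolar methyltransferase gene, stood at 248 ± 10.8 CPM in BXPC3 and 2568 ± 27.5 CPM in PANC1. TIMM50, a mitochondrial import gene, stood at 106 ± 5.30 CPM in BXPC3 and 1196 ± 26.6 CPM in PANC1, and AKT2, a kinase gene, at 177 ± 4.12 and 2113 ± 38.2 CPM. From the left edge of the window to MIR641, which overlaps AKT2, every tested gene except CNTD2 was lower in BXPC3, and CNTD2 did not pass the test. Of the 6 genes beyond, PRX was lower in BXPC3 and 5 were higher. The next lowest medians around members were those of PSMD1 (-2.52 over 7 genes) and PSMD8 (-1.80 over 20). PANC1 is known to carry extra copies of the chromosome 19 segment with AKT2. DNA copies were not measured here, and their part in the levels was not tested. The response of the neighbours to the combination in PANC1 was mixed: 10 rose and 8 fell, with a median log2 change of 0.056, AKT2 stood at 1306 ± 41.5 CPM with the combination against 2113 ± 38.2 CPM with vehicle, and FBL at 2486 ± 35.6 CPM with the combination against 2568 ± 27.5 CPM with vehicle.

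**Figure D4:**
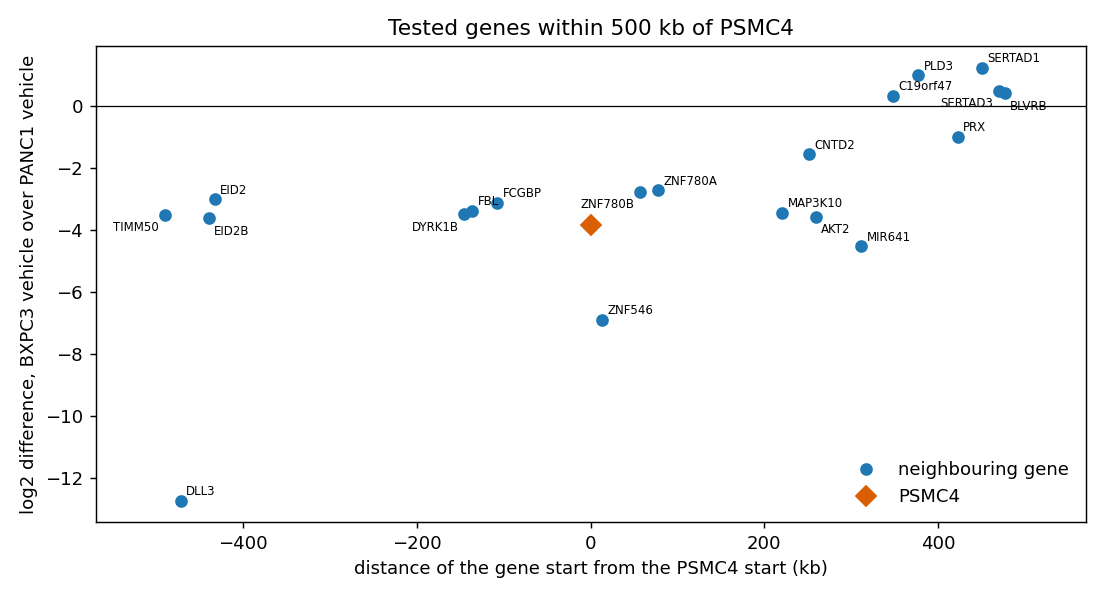
Log2 difference of BXPC3 vehicle over PANC1 vehicle (vertical axis) for 20 tested genes within 500 kb of PSMC4, by distance of their start from the PSMC4 start in kb, with PSMC4 as a diamond. Genes up to MIR641 lie below 0 and most beyond it above 0. The lowest point, DLL3, had 0 counts in BXPC3 vehicle libraries, so its fitted value depends on the model and is no bound.

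PSMC4 made up much of the proteasome signal in PANC1. All 48 genes summed to 9559.97 ± 59.1 CPM with the combination in PANC1, against 8449 ± 110.3 CPM with vehicle. Without PSMC4, a split made after the values were seen, the other 47 summed to 5128 ± 16.2 CPM with the combination, against 6133 ± 99.6 CPM with vehicle. The cap sum went the same way, with 7274 ± 60.3 CPM with the combination against 5667 ± 100.4 CPM with vehicle for all 17 genes, and 2843 ± 16.8 against 3351 ± 89.8 CPM for 16. So the total was higher with the combination in PANC1 with PSMC4 counted and lower without it.

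PSME4 and PSMF1 rose where most members fell. PSME4 (chr2:53864067-53970840, minus strand) encodes PA200, an alternative cap that works without ATP or ubiquitin. It had 307, 278 and 287 CPM with the combination, 206, 212 and 222 CPM with lonidamine and 193, 201 and 199.7 CPM with SR4 in PANC1, against 184, 173 and 177 CPM with vehicle. All 3 groups lay above vehicle, with rises of 0.75 ± 0.041, 0.24 ± 0.042 and 0.15 ± 0.043 log2. In BXPC3 it had 167, 163 and 176 CPM with the combination, against 146, 132 and 138 CPM with vehicle, a rise of 0.29 ± 0.049 log2. SR4 in BXPC3 was the 1 comparison of 6 in which it did not pass, at 0.029 ± 0.049 log2. PSMF1 encodes PI31, a core-binding protein known both as an inhibitor in the test tube and as an adaptor for proteasome transport. It had 287, 276 and 270.4 CPM with lonidamine in BXPC3, against 231, 232 and 224 CPM with vehicle, and rose by 0.29 ± 0.038 log2. PSMF1 rose in 5 of the 6 comparisons, by 0.13 to 0.29 log2, and its change with SR4 in PANC1, 0.053 ± 0.046 log2, did not pass the test.

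The assembly chaperones, which guide the building of the core and cap and leave the finished particle, also differed between lines. Of 7 tested, 5 fell with SR4, 6 with lonidamine and 6 with the combination in BXPC3, and 0 rose. In PANC1, 2 fell with SR4, 3 fell and 1 rose with lonidamine, and 3 fell and 2 rose with the combination. Among all genes tested, 33.9%, 32.7% and 39.5% fell in BXPC3 with SR4, lonidamine and the combination in turn, and 33.4%, 34.8% and 39.7% rose. In PANC1, 36.7%, 34.2% and 40.9% of all genes fell, and 35%, 35% and 40.1% rose. The chaperone falls in PANC1 were thus near the shares of all genes. PSMG1 and PSMG2 form the heterodimer that starts the alpha ring. PSMG1 had 28.5, 22.1 and 23.0 CPM with the combination in BXPC3, against 49.7, 51.2 and 50.6 CPM with vehicle, a fall of 1.03 ± 0.077 log2. In PANC1 it had 43.2, 47.1 and 48.9 CPM with the combination, against 53.0, 53.8 and 52.2 CPM with vehicle, and its fall of 0.15 ± 0.064 log2 had an adjusted p of 0.109 by DESeq2 and of 0.0549 to 0.240 by edgeR without combination replicate 1 or 2 or any 1 of the vehicle libraries. The edgeR adjusted p of this PANC1 fall was 0.0565 with DESeq2 size factors and 0.142 with no low-count filter. PSMG2 fell by 0.45 ± 0.077 log2 with the combination in BXPC3, and its change in PANC1, 0.038 ± 0.061 log2, did not pass the test.

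PSMG3 and PSMG4 make the partner dimer that follows. PSMG3 had 22.3, 26.4 and 23.3 CPM with the combination and 16.2, 15.9 and 16.5 CPM with lonidamine in PANC1, against 23.4, 26.3 and 27.2 CPM with vehicle. The lonidamine libraries lay clear of vehicle and the combination libraries overlapped it, with a fall of 0.68 ± 0.091 log2, while the change with the combination, -0.049 ± 0.086 log2, did not pass the test. PSMG4, at 47 to 129 counts per library, fell by 0.60 ± 0.16 log2 with the combination in PANC1 and by 0.33 ± 0.14 log2 in BXPC3, where DESeq2 gave an adjusted p of 0.0667 and edgeR gave 0.0697 to 0.135 without combination replicate 3 or vehicle replicate 1 or 3.

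PSMD5, PSMD9 and PSMD10 (gankyrin) each hold ATPases of the base before the ring closes. PSMD5 (chr9:120815496-120842984) had 86.9, 91.7 and 94.4 CPM with the combination in PANC1, against 75.3, 70.4 and 76.6 CPM with vehicle, a rise of 0.34 ± 0.050 log2. In BXPC3 it had 94.0, 94.1 and 88.8 CPM with the combination, against 115, 116 and 129 CPM with vehicle, a fall of 0.37 ± 0.050 log2. The deposited range of PSMD5 meets the antisense gene PSMD5-AS1, and the sources used here do not give whether strand was used in counting. PSMD9 rose by 0.31 ± 0.084 log2 with the combination in PANC1, and in BXPC3 its change of -0.15 ± 0.092 log2 did not pass the test. PSMD10 fell by 0.41 ± 0.052 log2 with the combination in PANC1 and by 0.32 ± 0.054 log2 in BXPC3. With lonidamine alone PSMD10 had 103, 109 and 104 CPM in PANC1, against 98.7, 93.9 and 91.0 CPM with vehicle, a rise of 0.14 ± 0.050 log2 for which edgeR gave an adjusted p of 0.0625 without lonidamine replicate 2 and 0.0766 without vehicle replicate 3.

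Against each compound alone, more members were lower than higher with the combination in BXPC3, while in PANC1 the numbers higher and lower were near the shares of all genes. Relative to SR4, 1 member was higher and 27 lower in BXPC3, beside 30.3% and 30.5% of all genes, and 17 were higher and 17 lower in PANC1, beside 33.2% and 33.4%. Relative to lonidamine, 1 was higher and 29 lower in BXPC3, beside 30.1% and 30.7% of all genes, and 16 were higher and 18 lower in PANC1, beside 37.1% and 37.5%. By role, the cap had 9 genes higher and 3 lower relative to SR4 in PANC1 and 10 higher and 3 lower relative to lonidamine, while the core had 3 higher and 7 lower and 1 higher and 7 lower. PSMD12 had the largest rise relative to SR4, 0.74 ± 0.045 log2, and PSMC4 relative to lonidamine, 0.93 ± 0.029 log2. PSMB5 fell further in PANC1, by 0.47 ± 0.060 log2 relative to SR4 and 0.34 ± 0.059 log2 relative to lonidamine. These comparisons assume the same doses in the combination as alone, and they share libraries with those against vehicle.

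Set against the sum of both single changes, the combination left most cap genes higher than that sum. This departure was tested as the SR4 by lonidamine interaction on the log2 scale. In PANC1 it was positive in 27 members and negative in 4, beside 30.8% and 30% of all genes, and positive in all 17 cap genes, with a median of 0.45 log2. The 4 negative ones became 1 without PANC1 SR4 replicate 2, and 2 without combination replicate 1 or 3, lonidamine replicate 1, or vehicle replicate 1 or 3. The core had 5 of 14 positive and 0 negative, with a median of 0.14 log2. In BXPC3 the interaction was positive in 21 and negative in 6, beside 23.7% and 25.5% of all genes, with 9 of 17 cap genes positive and 2 negative and 6 of 14 core genes positive and 1 negative. The largest in PANC1 were those of PSMD12 (1.11 ± 0.064), PSMG3 (0.96 ± 0.13), PSMC2 (0.87 ± 0.064) and PSMD13 (0.80 ± 0.054 log2). For PSMC2 the single changes in PANC1 were -0.65 log2 with SR4 and -0.35 log2 with lonidamine, against a combination change of -0.12 log2. PSMB10 in PANC1 was the most negative, at -1.46 ± 0.50 log2, but rests on 7 to 30 counts per library. In BXPC3 the most positive was PSMB9, at 0.94 ± 0.25 log2, where lonidamine alone lowered it more than the combination did, and the most negative PSMG4, at -0.73 ± 0.19 log2.

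**Figure D5:**
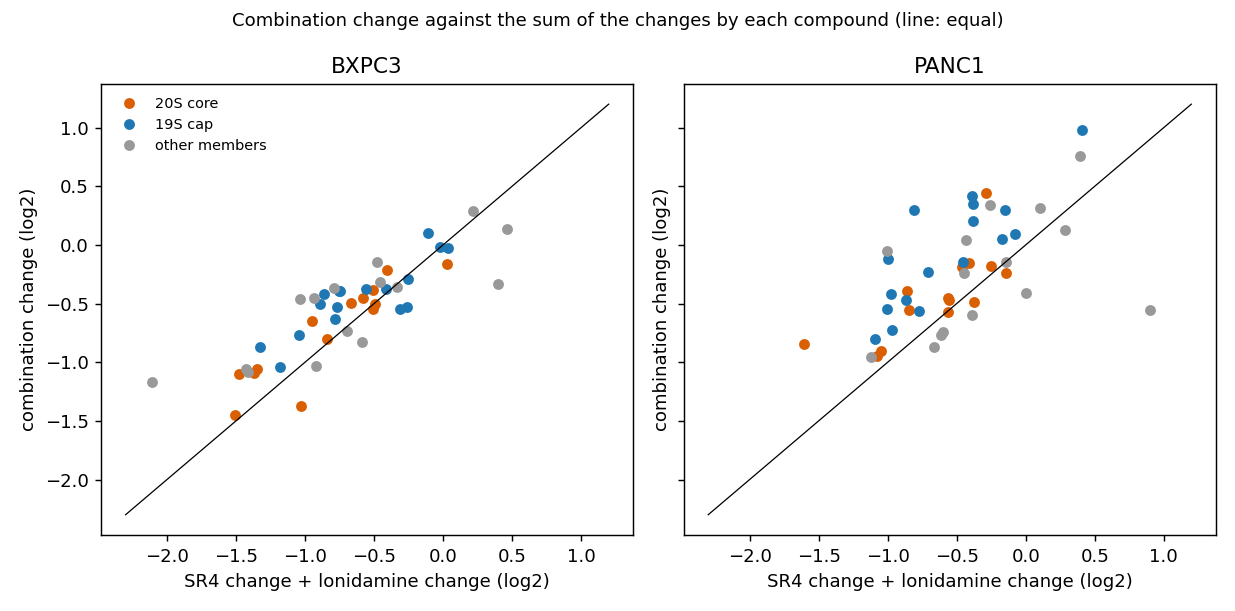
Log2 change with the combination (vertical axis) against the sum of the log2 changes with SR4 and with lonidamine (horizontal axis) for 46 proteasome genes, with a line where both are equal. In PANC1 all 17 cap genes lie above the line, where the interaction was positive in each, and in BXPC3 most points lie nearer to it.

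The response to the treatments differed between lines in many members. The difference, tested in 1 model of all 24 libraries as the log2 change in PANC1 minus that in BXPC3, was positive in 24 members and negative in 4 with the combination, beside 31.7% and 30.2% of all genes. It was positive in 13 and negative in 5 with SR4, beside 26.2% and 24.9%, and positive in 15 and negative in 3 with lonidamine, beside 23.5% and 18.2%. With DESeq2 size factors the split for lonidamine was 11 positive and 9 negative, and with the DESeq2 test it was 9 and 7. The 5 negative for SR4 became 3 without BXPC3 vehicle replicate 1, PANC1 SR4 replicate 3 or PANC1 vehicle replicate 3. The 3 negative for lonidamine became 5 without BXPC3 lonidamine replicate 3, BXPC3 vehicle replicate 1, PANC1 combination replicate 2 or PANC1 lonidamine replicate 2. With the combination, 11 of 17 cap genes, 5 of 14 core genes and 5 of 7 chaperones had a positive difference. Response sizes were related across the 46 members, with Pearson correlations between lines of 0.48 (SR4), 0.50 (lonidamine) and 0.61 (combination), beside 0.50, 0.60 and 0.51 over 11538 genes, as a description in which genes of a library are not independent.

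With the combination, 7 members rose in PANC1 and fell in BXPC3, with the difference itself past the test: PSMA5, PSMD3, PSMD5, PSMD6, PSMD7, PSMD12 and PSMD13. Of all genes tested in both lines, 7.7% did so, and 8.55% went the opposite way, as 0 members did. Among members past the test, the largest difference was that of PSMD13, 0.87 ± 0.058 log2 (edgeR adjusted p = 3.03e-16), and PSMG1 followed with 0.85 ± 0.10 log2. PSMG1 fell in BXPC3, and its smaller fall in PANC1 did not pass under several alternatives. PSMB5 differed the other way, by -0.48 ± 0.083 log2, its fall being larger in PANC1, as did PSMC6, by -0.44 ± 0.069 log2. With SR4, the number of opposite members was 0, beside 5.49% of all genes that rose in PANC1 and fell in BXPC3 and 6.04% with the reverse, and the largest difference past the test of a well-counted gene was that of PSMB6, 0.52 ± 0.097 log2. With lonidamine the largest difference past the test was that of PSMB9, 0.88 ± 0.21 log2, which had few counts with lonidamine in BXPC3. PSMB8 followed with 0.69 ± 0.12 log2. PSMD10 was the 1 member with opposite directions under lonidamine, higher in PANC1 and lower in BXPC3, beside 3.03% of all genes, with 4.61% the reverse.

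Under vehicle, members differed between BXPC3 and PANC1 about as often as all genes did, with 23 higher and 16 lower in BXPC3, beside 43% and 41.3% of all genes. Line and any batch of the line cannot be told apart. The median over the 46 was 0.26 log2. Per kilobase, PSMA7 was the highest member in BXPC3, at 192 ± 5.49 CPM per kilobase, followed by PSMD2 at 113 ± 2.97, PSMB7 at 95.8 ± 6.37 and PSMC3 at 95.1 ± 1.202. PSMB7 and PSMC3 did not differ beyond their spread. In PANC1, PSMC4 came first, PSMA7 followed at 129.96 ± 1.80 and PSMD2 at 125 ± 3.10, and the ranges given by the SDs of these last 2 met. The role medians in CPM per kilobase for BXPC3 and PANC1 vehicle libraries were 32.2 and 24.1 for alpha, 68.9 and 68.86 for constitutive beta, 41.6 and 39.6 for ATPase, 33.1 and 45.1 for non-ATPase and 18.1 and 13.1 for chaperone genes.

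The PA28 genes, PSMB8 and PSMB10 were higher in BXPC3 than in PANC1 under vehicle. PSME1 stood at 170.5, 163 and 158 CPM in BXPC3 vehicle libraries and 63.9, 64.4 and 65.3 CPM in PANC1 vehicle libraries, a log2 difference of 1.35 ± 0.050, and PSME2 differed by 1.13 ± 0.054, PSMB8 by 0.69 ± 0.081 and PSMB10 by 2.05 ± 0.27 log2. Around the PA28 genes on chromosome 14, 26 of 29 tested neighbours within 500 kb were also higher in BXPC3 and 1 was lower, with a median log2 difference of 1.15, and the part of this in the PA28 levels was not tested. PSMB9 was lower in BXPC3, by 0.52 ± 0.12 log2. Of the 24 interferon and antigen processing genes, 20 were higher and 2 lower in BXPC3, beside 43% and 41.3% of all genes. Among cap genes, PSMD4, PSMD13 and PSMD11 were lower in BXPC3, by 1.02 ± 0.046, 0.93 ± 0.040 and 0.87 ± 0.039 log2, and PSMC6 and PSMD6 were higher, by 0.78 ± 0.046 and 0.67 ± 0.053 log2.

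Partners of the proteasome whose symbols lie outside the rule were mixed. POMP, the chaperone that completes the core and is known to be induced by interferon, and SEM1, the smallest lid subunit, fell in all 6 comparisons, POMP by 0.52 ± 0.048 log2 and SEM1 by 0.45 ± 0.056 log2 with the combination in BXPC3 and by 0.62 ± 0.053 and 0.37 ± 0.062 log2 in PANC1. ADRM1, a ubiquitin receptor of the cap, fell by 0.26 ± 0.047 and 0.11 ± 0.044 log2. The deubiquitinases of the cap differed between lines: USP14 had 613, 579.9 and 599 CPM with the combination in PANC1, against 173, 176 and 168 CPM with vehicle, a rise of 1.84 ± 0.043 log2, and UCHL5 rose by 0.76 ± 0.051 log2, whereas in BXPC3 they fell by 0.36 ± 0.050 and 0.63 ± 0.059 log2. ZFAND2A, a heat shock gene whose product binds the cap, rose by 2.44 ± 0.10 log2 with the combination in PANC1 and by 1.22 ± 0.11 log2 in BXPC3. AKIRIN2, which carries proteasomes into the nucleus, rose by 0.96 ± 0.059 and 0.72 ± 0.059 log2, while IPO9, the importin it works with, fell by 0.56 ± 0.039 and 0.88 ± 0.047 log2. ECPAS, listed under its older symbol KIAA0368 and known to hold core and cap together, rose by 0.55 ± 0.038 and 0.65 ± 0.038 log2, and ZFAND5, an activator of the proteasome, rose by 0.58 ± 0.040 log2 in BXPC3 and fell by 0.45 ± 0.042 log2 in PANC1. Of 15 partners, 8 rose and 6 fell with the combination in PANC1, beside 40.1% and 40.9% of all genes. In BXPC3, 5 rose and 8 fell, beside 39.7% and 39.5%.

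Of the genes known to regulate proteasome transcription, more rose than fell in each comparison with vehicle, by the smallest margin with lonidamine in PANC1. Of 16, 10 rose and 5 fell with the combination in BXPC3, with a median log2 change of 0.55, and 12 rose and 4 fell in PANC1, with a median of 0.49. With lonidamine 10 rose and 4 fell in BXPC3 (median 0.45) and 7 rose and 4 fell in PANC1 (median 0.091), and with SR4 9 rose and 5 fell in BXPC3 (median 0.31) and 11 rose and 1 fell in PANC1 (median 0.34). Of all genes, 39.7% rose and 39.5% fell with the combination in BXPC3, and 40.1% and 40.9% in PANC1. The shares with lonidamine were 34.8% and 32.7% in BXPC3 and 35% and 34.2% in PANC1. Those with SR4 were 33.4% and 33.9% in BXPC3 and 35% and 36.7% in PANC1. The list includes the repressor BACH1, so a rise does not mean the same for every gene. NFE2L1 had 1121, 1156 and 1123 CPM with the combination, 859.9, 877 and 842 CPM with lonidamine and 923, 891 and 915 CPM with SR4 in BXPC3, against 343, 346 and 353 CPM with vehicle. It rose in that line by 1.72 ± 0.031, 1.32 ± 0.031 and 1.39 ± 0.031 log2. In PANC1 NFE2L1 had 386, 411 and 376 CPM with the combination, against 456, 446 and 440.1 CPM with vehicle, a fall of 0.15 ± 0.037 log2, beside rises of 0.81 ± 0.036 log2 with lonidamine and 0.18 ± 0.037 log2 with SR4. The mRNA level says nothing of the processed NRF1 protein, which was not measured. DDI2, the protease that releases active NRF1, rose by 1.32 ± 0.063 log2 with the combination in BXPC3 and by 0.62 ± 0.059 log2 in PANC1. NFE2L2 rose in all 6, by 0.48 ± 0.040 log2 with the combination in BXPC3 and 0.78 ± 0.036 log2 in PANC1, and NFE2L3, of the same factor family, fell by 2.06 ± 0.060 and 1.40 ± 0.052 log2. The small Maf partner genes MAFF and MAFG rose by 2.48 ± 0.12 and 1.18 ± 0.043 log2 with the combination in PANC1, and MAFG rose by 1.90 ± 0.058 log2 in BXPC3. BACH1, a repressor at the same element, rose by 1.98 ± 0.043 log2 with the combination in BXPC3.

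Genes that make and carry ubiquitin moved both ways. Of 29 tested, 10 rose and 10 fell with the combination in BXPC3, beside 39.7% and 39.5% of all genes. In PANC1, 11 rose and 13 fell, beside 40.1% and 40.9%. The medians were 0.025 log2 in BXPC3 and -0.014 log2 in PANC1. UBE2C and UBE2S, ubiquitin enzymes of mitotic exit, fell by 3.98 ± 0.075 and 1.84 ± 0.050 log2 with the combination in BXPC3, and UBE2R2 rose by 0.69 ± 0.044 log2. In PANC1, VCP, the segregase that prepares substrates, and its cofactor NPLOC4 fell by 0.84 ± 0.034 and 1.03 ± 0.046 log2 with the combination, and the ubiquitin chain enzyme UBE4A and the activating enzyme UBA6 rose by 1.19 ± 0.042 and 0.96 ± 0.044 log2.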

How the data were processed

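Per the labels, messenger RNA was sequenced in 24 samples of BXPC3 and PANC1 cells. The submitters' processing notes name STAR 2.7.8a, Partek, DESeq2, GRCh38 and hg38 without saying which did what, and the counting tool, the annotation and the use of strand are left unstated in the sources used here. The authors deposited 1 table of raw counts per line, with 25168 genes, their positions and their lengths, and all value columns were used. Groups came from the column names and the labels. The third SR4 column of BXPC3 carries a number that differs from the sample's title, so it was used as a replicate without a number.

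Counts were tested with edgeR 4.0.16 in R 4.3.3 (limma 3.58.1 installed with it): TMM scaling, filterByExpr with a minimum count of 10, and the quasi-likelihood test with Benjamini-Hochberg adjustment over all genes tested (12920 in BXPC3, 12514 in PANC1, 13930 in the model of both lines). Each line's 4 groups shared 1 estimate of the spread over 12 libraries, with 8 residual degrees of freedom. Differences between lines came from the model of both. An SE is the log2 change divided by the square root of the F statistic. CPM were scaled over all 24 libraries, and levels between genes were divided by the deposited gene length. The procedure was tested on simulated data. The limits for counts of 0 rest on 3 counts and cover counting error only.

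Named with values per library were a panel of catalytic, scaffold, activator and assembly genes. The called members with the largest rise and fall per role were also named, and the 3 largest differences each way between lines. Other members were named after their values were seen. From each list, up to 4 genes with the smallest adjusted p in the combination were named, beside a panel of regulators. The members and all lists were chosen with earlier results of these data known. The alternatives were DESeq2 size factors, the DESeq2 1.42.0 test, no low-count filter, fits of only the groups compared, a replicate block, and leaving out each library. Some genes of the lists are not reported here by name.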

Additional observations from a re-analysis of the deposited data

Results flagged for a closer look

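The following results stand out because the response in PANC1 minus that in BXPC3, tested in the model of all 24 libraries with edgeR, had an adjusted p under 0.05. They are the members with the largest such differences and those with opposite directions, as log2 values. With the combination the difference was positive for PSMD13 (0.87), PSMG1 (0.85), PSMC4 (0.84), PSMD3 (0.80), PSMD6 (0.69), PSMD5 (0.67), PSMD12 (0.63), PSMA5 (0.61) and PSMD7 (0.55). It was negative for PSMB5 (-0.48), PSMC6 (-0.44) and PSMD2 (-0.23). With lonidamine it was positive for PSMB9 (0.88), PSMB8 (0.69), PSME2 (0.54) and PSMD10 (0.36), and negative for PSMD2 (-0.42), PSMB5 (-0.39) and PSMG3 (-0.31). With SR4 it was positive for PSMB10 (1.12), PSMB6 (0.52) and PSMG1 (0.42), and negative for PSMG3 (-0.33), PSMD2 (-0.27) and PSMC2 (-0.25). The difference for PSMB10 rests on 7 to 30 counts per PANC1 library, and its edgeR adjusted p was 0.133 without PANC1 SR4 replicate 2 and 0.0521 without PANC1 vehicle replicate 1. The differences for PSMG3 did not pass without each of several single libraries, among them BXPC3 vehicle replicate 1 and PANC1 vehicle replicate 3.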

How the results depend on the processing

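None of the 178 results for named genes called in the main fit changed direction under any alternative. Counts of proteasome genes called stayed within 1.5 times in all comparisons of a treatment with vehicle. Of the others, the number higher in the combination than with lonidamine in BXPC3 was 1, and 2 both with no low-count filter and with only the groups compared. The number with a negative interaction in PANC1 was 4, and 2 both with the DESeq2 test and with no low-count filter, and it ranged between 1 and 5 when single libraries were left out. For the lonidamine response in PANC1 minus BXPC3, the number positive was 15, and 9 with the DESeq2 test. The number negative was 3, and 9 with DESeq2 size factors and 7 with the DESeq2 test, with a range between 2 and 5 when single libraries were left out. For the SR4 response the number negative was 5, with a range between 3 and 5. The cause of these shifts was not tested. Of 178 called results for named genes, 160 passed under every alternative. Sums without PSMC4 were chosen after seeing the data. The replicate numbers gave no sign of pairing. With group means taken out, same-numbered libraries correlated by -0.08 to 0.08 for BXPC3, and for PANC1 by -0.14 to 0.09. Libraries with different numbers correlated by -0.084 to 0.10 for BXPC3 and by -0.085 to 0.11 for PANC1. This cannot show that the libraries were unpaired. With the replicate block, 23 in place of 27 members were lower in the combination than with SR4 in BXPC3, 18 in place of 21 had a positive interaction there, and 1 of 210 results for named genes, PSMD9 with SR4 in BXPC3, no longer passed (edgeR adjusted p = 0.162). Depth limits PSMA2, PSMA6, PSMB10 and, with lonidamine in BXPC3, PSMB9.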
